A study of Homo sapiens with 18 samples.

Results

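Dexamethasone and RU486 were compared directly with each other in H295R_GRα cells, on 5 of the 17 arrays with values in a series of 18. H295R is an established human cell line, derived from a carcinoma of the adrenal cortex and able to make steroids, and the GRα cells carry a stable, non-inducible pcDNA4 vector that over-expresses the alpha isoform of the glucocorticoid receptor (gene NR3C1). The cells were treated for 6 h with 100 nM dexamethasone (3 arrays, replicates A, B and C) or 100 nM RU486 (2 arrays, replicates B and C), after 24 h without serum. RU486 replicate A failed quality control per the labels and has no values. The groups were read from the sample titles. Vehicle-treated GRα cells (ethanol, 3 arrays) and control cells with an empty pcDNA4 vector under dexamethasone, RU486 or vehicle (3 arrays each) stood beside them. Both lines were grown in medium with Zeocin. GRα and control cells are each 1 stable line, and the labels call the samples biological replicates but do not say whether they came from separate cultures. The p-values therefore rest on the spread between these arrays, part of which may be technical.

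The glucocorticoid receptor is a transcription factor that waits in the cytoplasm with chaperones, moves to the nucleus when a steroid binds it, and there binds palindromic DNA elements near the genes it controls. Dexamethasone is a synthetic fluorinated glucocorticoid and a full agonist. RU486 (mifepristone) fits the same ligand pocket but carries a bulky dimethylaminophenyl group and a propynyl group that dexamethasone lacks, and it acts as an antagonist or partial agonist, also at the progesterone receptor. In the adrenal cortex, steroid output depends on STAR, which brings cholesterol into mitochondria, and on cytochrome P450 and hydroxysteroid dehydrogenase enzymes under the control of NR5A1.

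The signals were RMA log2 values of 18417 genes, each taken from 1 probe set. A gene was called when the limma adjusted p (Benjamini-Hochberg over all genes, two-sided) was under 0.05. Among adrenocortical markers in the 5 arrays, STAR lay at log2 9.43 to 9.70, the side-chain cleavage gene CYP11A1 at 10.09 to 10.32 and CYP17A1 at 9.66 to 9.94, where the median of an array over all probe sets was 6.28 to 6.35. MC2R, the ACTH receptor gene, at 5.16 to 5.60, and CYP11B2, the aldosterone synthase gene, at 5.13 to 5.55, lay below that median. Levels of different probe sets also depend on probe affinity and detection above background was not tested, so these values do not settle the labelled cell type. NR3C1 stood at 8.0, 8.04 and 8.11 with dexamethasone and at 8.02 and 7.98 with RU486. These values overlapped, and all exceeded the NR3C1 means of control cells (7.34 with dexamethasone, 7.39 with RU486). Correlations over genes were 0.995 to 0.996 between arrays of the same compound and 0.994 to 0.995 between compounds. GRα vehicle replicate B stood apart from the other arrays (limma array weight 0.194, against 0.76 to 1.37 for the 5 arrays compared).

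Dexamethasone gave a higher level than RU486 at 137 genes and a lower level at 28, together 165 of 18417 genes (0.896% of all genes, 0.744% higher and 0.152% lower). The largest called differences were all higher with dexamethasone: 11 called genes differed by at least 1 log2, and none of the 28 lower genes did, their largest difference being 0.55. The median of the 137 higher genes was 0.522 log2 and that of the 28 lower genes −0.382, against −0.003 over all genes. At every called gene the dexamethasone and RU486 arrays were apart, but so they were at 26.9% of all genes. In bulk RNA a change in RNA per cell and a change in the number of cells that hold it cannot be told apart. The total fell when 1 of the 5 arrays was left out: it was 112, 102 and 117 without dexamethasone replicates A, B and C. Fits without RU486 replicate B or C, which leave 1 array in that group, also called fewer genes. Whether these falls came from the particular arrays or from the lower precision of a smaller fit was not tested. Leaving GRα vehicle replicate B out of the shared estimate of spread gave 259 genes, and the count was 54, all higher, when only the 5 arrays were fitted.

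**Figure D1:**
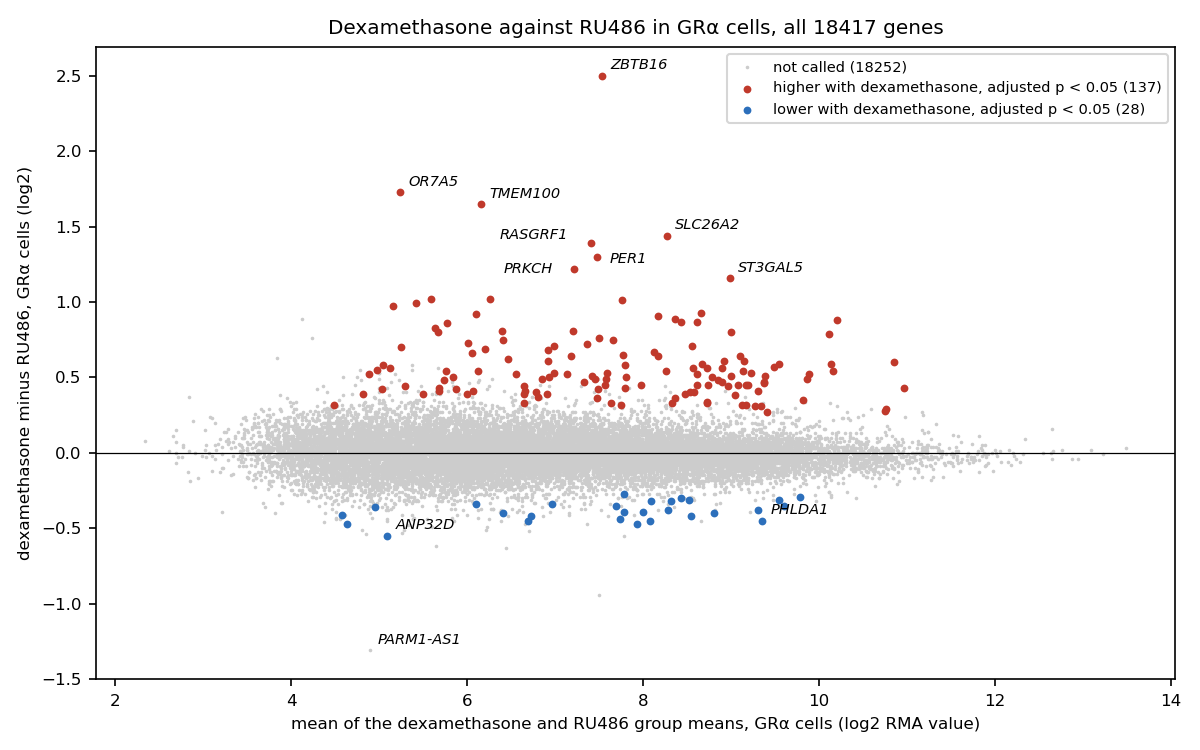
The difference between dexamethasone and RU486 in GRα cells (log2, vertical axis) is plotted against the mean of the group means (log2 RMA value, horizontal axis), each point being 1 of 18417 genes. Of the coloured points, 137 lie above 0 and 28 below, and the called differences reach 2.5 upward but 0.55 downward; PARM1-AS1 is far below but was not called.

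ZBTB16, a zinc finger transcription factor long known to respond to glucocorticoids, had log2 values of 8.87, 8.75 and 8.72 with dexamethasone and 6.14 and 6.42 with RU486. The groups were far apart, dexamethasone being 5.65-fold above RU486 (log2 difference 2.5 ± 0.10, SE; limma adjusted p = 7.17e-11). RASGRF1, which encodes an exchange factor that activates Ras, had values of 8.07, 8.33 and 7.93 against 6.75 and 6.69 (2.62-fold, log2 1.39 ± 0.11 SE). Its 2 probe sets agreed in direction but not in size, the dimmer one showing 0.50 and missing the threshold over all probe sets (limma adjusted p = 0.262). PER1, a repressor in the circadian clock, stood at 8.14, 8.20 and 8.05 against 6.80 and 6.86 (2.46-fold). PRKCH, the gene of protein kinase C eta, stood at 7.85, 7.93 and 7.72 against 6.66 and 6.56 (2.33-fold). In both genes the lowest dexamethasone array lay above the highest RU486 array by more than the range within either compound.

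OR7A5, an olfactory receptor gene, had values of 6.17, 6.10 and 6.04 with dexamethasone and 4.28 and 4.46 with RU486 (3.33-fold, log2 1.73 ± 0.09 SE, limma adjusted p = 5.61e-09). A further olfactory receptor gene, OR7C1, stood at 5.99, 5.96 and 5.78 against 4.93 and 4.93 (1.98-fold). All values of both olfactory receptor genes lay below the array medians of 6.28 to 6.35. TMEM100, which encodes a small transmembrane protein known from BMP signalling in endothelium, had values of 6.88, 7.20 and 6.86 against 5.18 and 5.47 (3.14-fold). SLC26A2, the sulfate transporter gene, stood at 8.99, 9.02 and 8.96 against 7.50 and 7.59 (2.72-fold, log2 1.44 ± 0.08 SE). Replicates of SLC26A2 lay close together, and the compounds were far apart. ST3GAL5, the synthase of the ganglioside GM3, stood at 9.62, 9.63 and 9.47 against 8.39 and 8.42 (2.24-fold).

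**Figure D2:**
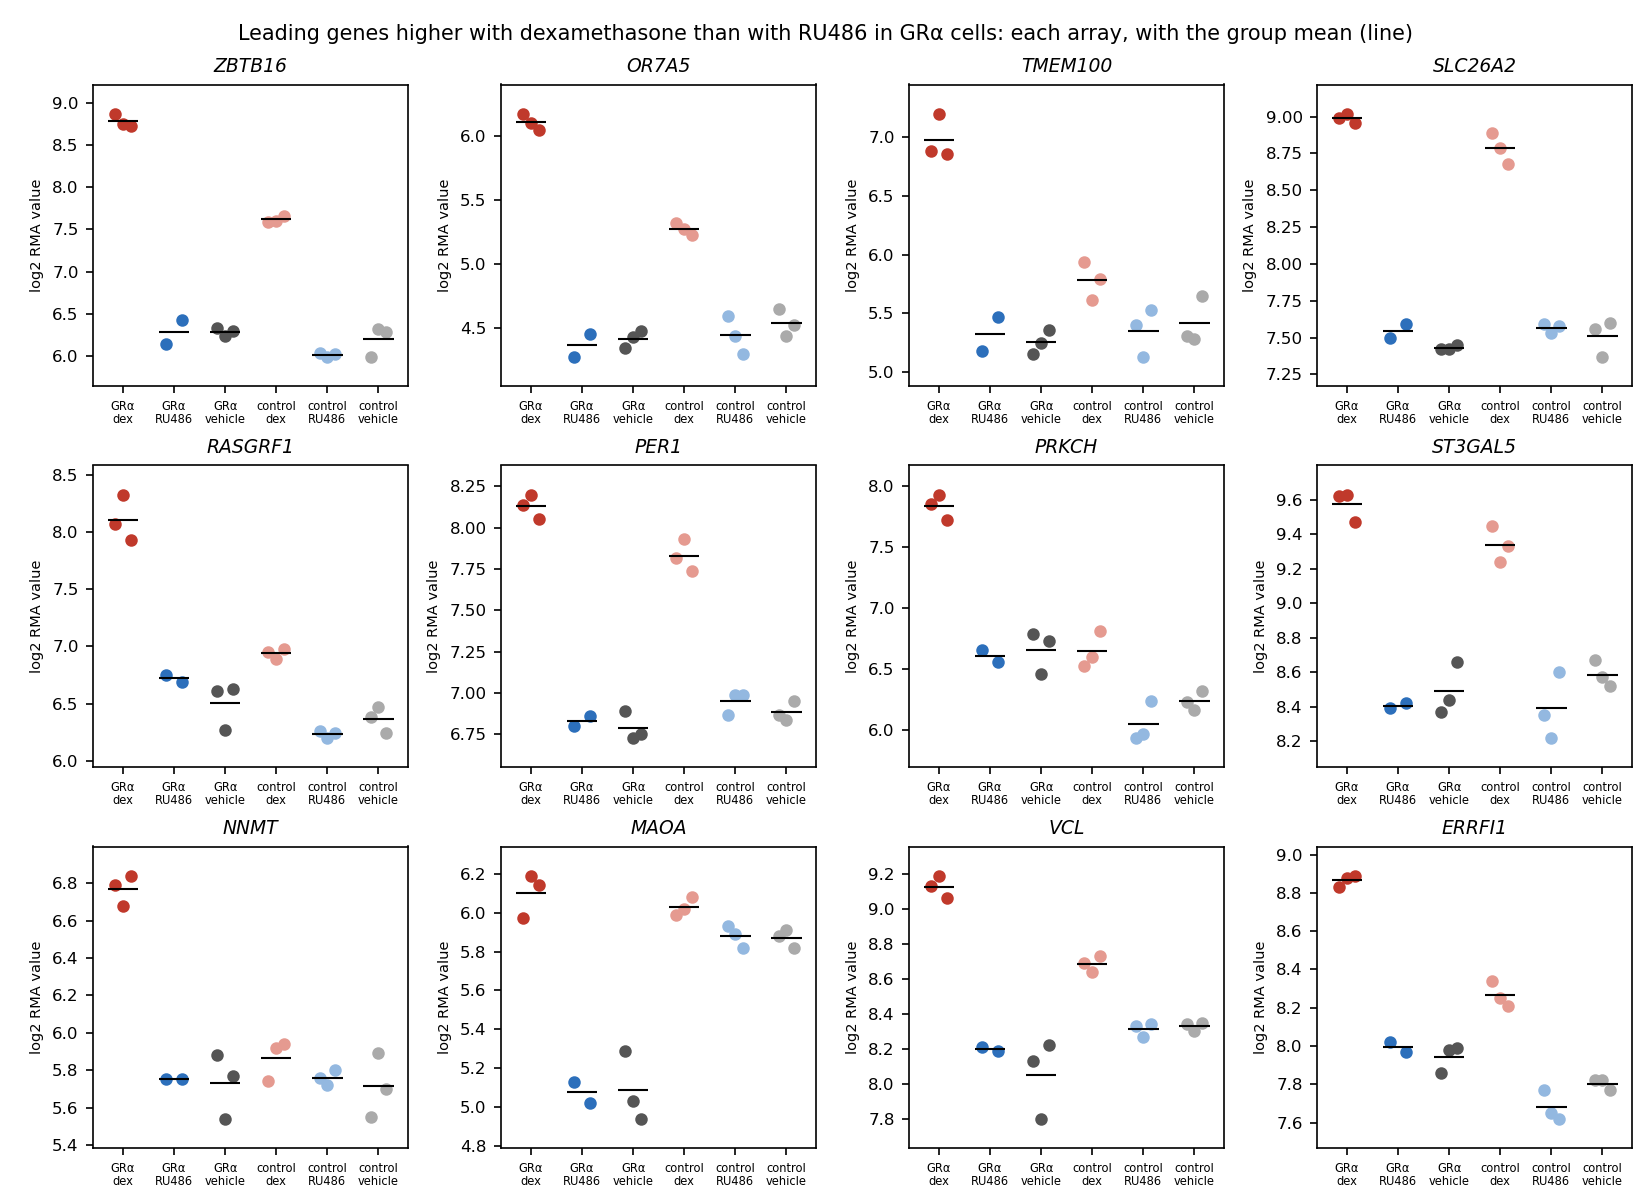
Each panel shows the log2 RMA value of 1 gene in every array (points) with the group mean (line) for GRα and control cells under dexamethasone, RU486 and vehicle. In all 12 panels the 3 GRα dexamethasone arrays lie above both GRα RU486 arrays, and for MAOA the control arrays of all treatments lie near the GRα dexamethasone arrays.

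The amine-metabolising gene MAOA had values of 5.97, 6.19 and 6.14 with dexamethasone and 5.13 and 5.02 with RU486 (2.03-fold, log2 1.02 ± 0.09 SE). NNMT, whose enzyme methylates nicotinamide, stood at 6.79, 6.68 and 6.84 against 5.75 and 5.75 (2.02-fold). VCL, the gene of the focal adhesion protein vinculin, stood at 9.13, 9.19 and 9.06 against 8.21 and 8.19 (1.90-fold). None of these groups overlapped. The other genes among the 20 largest differences were FRY (2.02-fold), LYVE1, a hyaluronan receptor gene of lymphatic endothelium (1.97-fold), IL1RAP, which encodes a co-receptor for interleukin-1 (1.90-fold) and the actin-binding gene ABLIM1 (1.88-fold). TSPYL2 (1.86-fold), the homeobox gene MEIS1 (1.84-fold), CPPED1 (1.83-fold) and ERRFI1, a feedback inhibitor of the EGF receptor (1.82-fold), completed this group. Among the 20 genes, a filter against dim genes, 1 of the other settings, removed OR7A5, OR7C1 and LYVE1. Of these 20 genes, 18 were called in each of the 5 fits that left out 1 array; OR7C1 was called in 3 (limma adjusted p up to 0.0528) and ABLIM1 in 4 (up to 0.0846).

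The 28 lower genes differed less. PHLDA1, a pleckstrin homology domain gene that responds to growth signals, had log2 values of 9.13, 9.14 and 9.10 with dexamethasone and 9.58 and 9.58 with RU486 (1.37-fold lower, log2 −0.45 ± 0.07 SE, limma adjusted p = 0.00117). Replicates of PHLDA1 lay close together, and it was the only lower gene called in all 5 fits without 1 array. MYB, a proto-oncogene transcription factor, stood at 7.92, 7.82 and 7.84 against 8.35 and 8.25 (1.36-fold lower) and was called in 4 of those fits (limma adjusted p up to 0.105). ANP32D, with the largest of these differences, stood at 4.98, 4.76 and 4.73 against 5.39 and 5.35 (1.47-fold lower) and was called in 3. All these ANP32D values lay below the array medians of 6.28 to 6.35. DACT1, which encodes a modulator of Wnt signalling, stood at 9.10, 9.13 and 9.13 against 9.46 and 9.53 (1.30-fold lower), and INPP4B, a phosphoinositide phosphatase gene, at 8.28, 8.38 and 8.34 against 8.75 and 8.77 (1.34-fold lower). IFIT1, an interferon-induced gene, was 1.31-fold lower, and these genes too were called in 3 of 5 fits.

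Further lower genes were SNCAIP and REG4 (1.39-fold each), the polysialyltransferase gene ST8SIA4 (1.36-fold), the ubiquitin ligase gene RNF182 (1.35-fold), RANBP3L (1.34-fold), the small Cajal body RNA SCARNA23 (1.33-fold), OXR1 and the zinc finger gene KLF10 (1.32-fold each). OSBPL6 (1.31-fold), MB21D2 (1.30-fold), the calcitonin receptor gene CALCR (1.29-fold), the transcription factor gene GATA6 (1.28-fold), the neurofilament gene NEFL and MAPK4 (1.27-fold each) followed. Of the 28 lower genes, 14 were called in none of the 5 fits without 1 array. The limma fit of the 5 arrays alone called 0 of the 28, against 54 higher genes. Of the 137 higher genes, 53 were called in all 5 fits without 1 array and 18 in none.

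**Figure D3:**
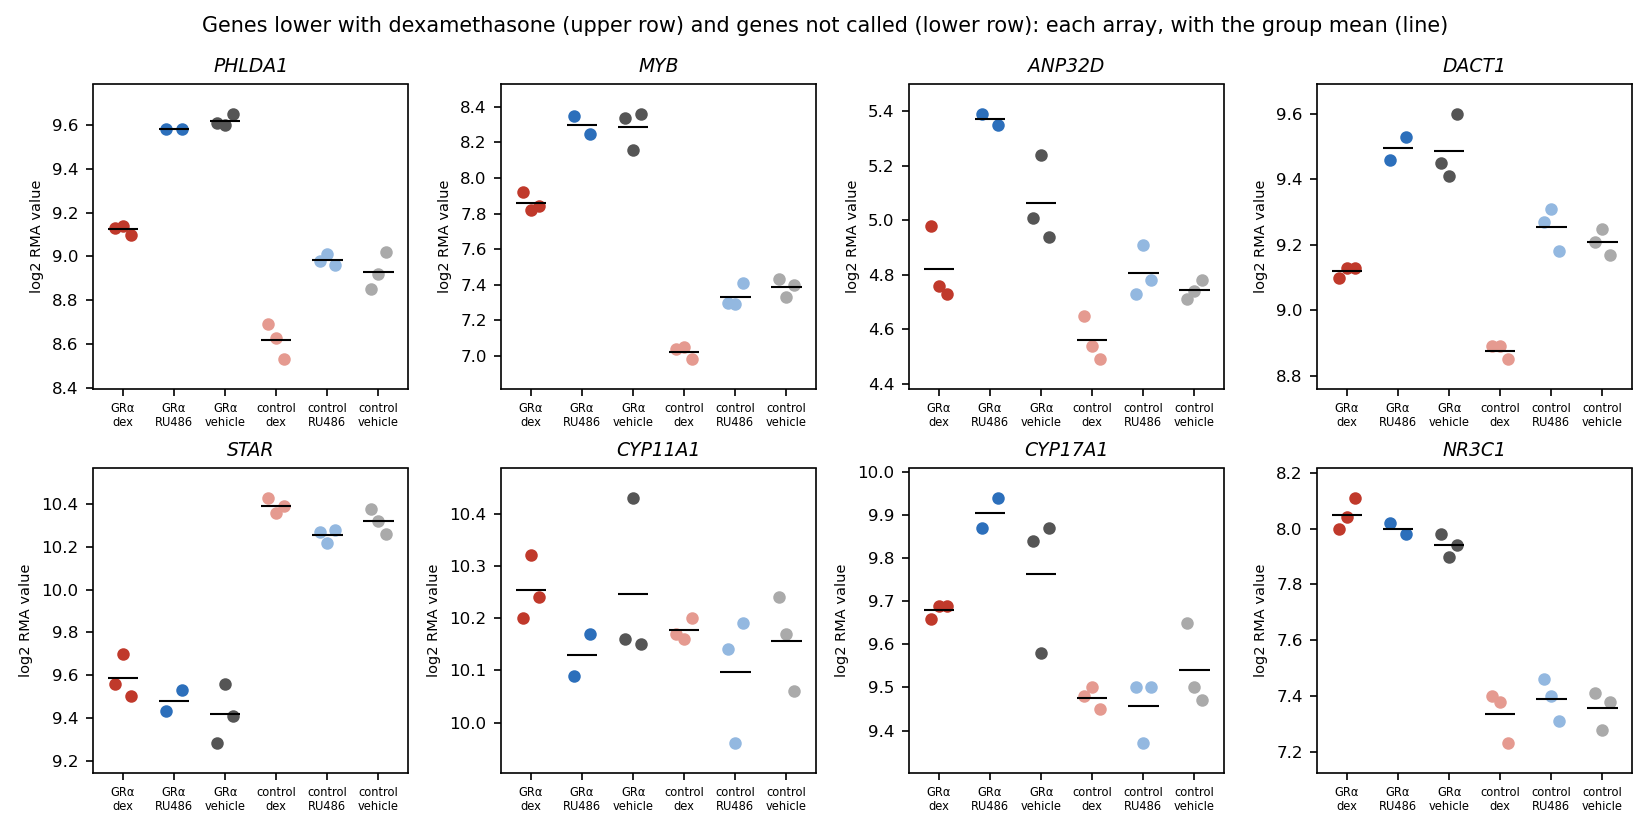
Panels show the log2 RMA value in every array (points) and the group mean (line) of 4 genes lower with dexamethasone (PHLDA1, MYB, ANP32D, DACT1) and 4 not called (STAR, CYP11A1, CYP17A1, NR3C1). In the upper row the GRα dexamethasone arrays lie below the GRα RU486 arrays; in the lower row differences between the compounds are at most 0.22 log2 in GRα cells.

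The compounds were then compared over lists of genes with shared roles. For each list the called counts can be read against 0.744% higher and 0.152% lower among all genes. Counts at an unadjusted limma p under 0.05 can be read against 1629 of 18417 genes. Of 40 measured genes that glucocorticoids are known to induce, 9 were higher with dexamethasone and 0 lower by limma (22.5% higher), and the list median was 0.096. The list was compiled with earlier results of these arrays known. Beside ZBTB16, SLC26A2, PER1, MAOA and ERRFI1 these were PDCD4, a translation inhibitor gene (log2 0.79 ± 0.08 SE), TSC22D3, which encodes the leucine zipper protein GILZ (0.75 ± 0.13), BCL6, a transcriptional repressor gene (0.65 ± 0.09), and NFKBIA, the gene of the NF-kB inhibitor (0.47 ± 0.07). TSC22D3 had values of 8.09, 8.12 and 7.91 against 7.21 and 7.37, without overlap, and was called in 4 of 5 fits without 1 array. The list's count stayed at 8 or 9 in all these fits and in the fit of the 5 arrays alone.

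Other well-known targets were not called between the compounds. DUSP1, the gene of a MAP kinase phosphatase, had values of 7.79, 7.88 and 7.73 against 7.76 and 7.67, which overlapped, with a 95% interval of the difference from −0.10 to 0.26. SGK1, a kinase gene of sodium transport, stood at 8.18, 8.34 and 8.19 against 8.16 and 8.19 (interval −0.11 to 0.23), and KLF9, a zinc finger gene, at 6.66, 6.72 and 6.57 against 6.56 and 6.54 (−0.07 to 0.26). The RU486 arrays lay within the dexamethasone range, or close below it, in DUSP1 and SGK1. At KLF9 both RU486 arrays lay just below all dexamethasone arrays, apart but not called. None of 21 inflammatory genes that glucocorticoids are known to repress was called, with 3 at an unadjusted limma p under 0.05 and differences from −0.23 (IL6 and VCAM1) to 0.35 (LIF).

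Among 5 measured steroid hormone receptor genes none was called by limma, and 2 had an unadjusted p under 0.05. NR3C2, the mineralocorticoid receptor gene, had values of 6.23, 6.31 and 6.02 against 6.06 and 5.63, which overlapped (log2 0.34 ± 0.11 SE, limma adjusted p = 0.289). PGR, the gene of the progesterone receptor, stood at 6.83, 6.96 and 6.86 against 7.09 and 7.01 (−0.17 ± 0.08), and ESR1, ESR2 and NR3C1 differed by −0.03, 0.11 and 0.05. Of 21 chaperone and coregulator genes 1 was lower, PPARGC1A, which encodes the coactivator PGC-1α. It stood at 5.93, 5.97 and 5.90 against 6.19 and 6.35 (log2 −0.34 ± 0.07 SE, limma adjusted p = 0.0327) and was called in none of the 5 fits without 1 array (adjusted p up to 0.467).

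No gene of the steroid synthesis pathway separated the compounds past the threshold. Of 21 measured members, 0 were higher and 0 lower by limma, 4 having an unadjusted p under 0.05, and the 95% intervals of all members lay between −0.60 and 0.44. STAR had values of 9.56, 9.70 and 9.50 with dexamethasone and 9.43 and 9.53 with RU486, which overlapped (interval −0.07 to 0.28). CYP11A1 differed by 0.13 (−0.06 to 0.32), CYP11B1, the cortisol-forming 11β-hydroxylase gene, by 0.08 (−0.20 to 0.36), CYP11B2 by 0.12 (−0.13 to 0.37) and MC2R by 0.12 (−0.21 to 0.44). CYP17A1 stood at 9.66, 9.69 and 9.69 against 9.87 and 9.94, apart but not called (−0.22, interval −0.40 to −0.05, limma adjusted p = 0.382). SULT2A1, which sulfates DHEA, stood at 8.45, 8.41 and 8.23 against 8.59 and 8.74, also apart and not called (−0.30, interval −0.52 to −0.09). HSD3B2, the adrenal 3β-hydroxysteroid dehydrogenase gene, overlapped, at 5.29, 5.17 and 5.38 against 5.82 and 5.24, and its RU486 arrays differed from each other by more than the means of the groups.

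Transcription factors of the adrenal cortex gave 1 higher and 1 lower gene among 14. NR5A1, which encodes steroidogenic factor 1, had values of 8.94, 9.03 and 8.92 against 8.50 and 8.53 (log2 0.45 ± 0.09 SE, limma adjusted p = 0.0176), apart in every array. GATA6 stood at 7.53, 7.41 and 7.61 against 7.95 and 7.79 (−0.35 ± 0.08), also apart. Both calls held in 1 of 5 fits without 1 array, with adjusted p-values up to 0.192 and 0.43. The orphan receptor genes NR4A2 (−0.44 ± 0.13) and NR4A3 (−0.38 ± 0.10) were not called, and NR4A1 differed by 0.04. Of 16 genes for cholesterol synthesis and uptake, 0 were called by limma (1 had an unadjusted p under 0.05), with differences from −0.12 to 0.20.

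In the signalling and clock lists, a few members were called. In the core clock, 1 of 18 genes was higher (PER1) and 1 lower: NR1D2, a nuclear receptor repressor gene, stood at 9.62, 9.63 and 9.67 against 9.96 and 9.89 (log2 −0.29 ± 0.06 SE) and was called in none of the fits without 1 array. The related NR1D1 (−0.31 ± 0.10) and the clock genes CRY2 (0.28 ± 0.08) and PER2 (0.24 ± 0.09) were not called. Among 20 feedback inhibitors of growth factor signalling 2 were higher and 0 lower: ERRFI1 and DUSP6, the ERK phosphatase gene, at 6.62, 6.80 and 6.91 against 6.00 and 6.05 (1.69-fold). Of 24 immediate-early genes, CSRNP1 was higher (0.52 ± 0.08) and PHLDA1 and KLF10 were lower. LGR5, a stem cell receptor gene and Wnt target, stood at 9.84, 9.88 and 9.80 against 9.21 and 9.30 (1.5-fold), and it was the only called gene of 16 in the Wnt list.

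The BMP and TGF-beta list held TMEM100 as its only call among 21 genes, and its median was −0.098. ID3, a BMP-responsive inhibitor of basic helix-loop-helix factors, had values of 7.44, 7.59 and 7.52 against 7.90 and 8.23. These did not overlap, yet ID3 was not called (−0.55 ± 0.16 SE, limma adjusted p = 0.161). In the BCL2 family 1 of 16 genes was higher, BCL2L1, which encodes the survival protein BCL-XL, at 9.25, 9.26 and 9.25 against 8.78 and 8.71 (1.43-fold). That call held in 3 of 5 fits without 1 array.

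In the structural and metabolic lists, few members differed and those that did were higher with dexamethasone. VCL and, at 1.76-fold, SYDE2 (6.82, 6.82 and 6.76 against 6.09 and 5.89) were higher among 20 actin and adhesion genes. ST3GAL5 was the single call among 18 sphingolipid and ganglioside genes, and SLC26A2 that among 12 genes of sulfate activation and transport. The neighbouring fatty acid desaturase genes FADS2 (9.52, 9.50 and 9.26 against 8.77 and 8.79, 1.56-fold) and FADS3 (7.88, 7.86 and 7.74 against 7.41 and 7.26, 1.41-fold) were higher among 15 genes. FADS1, in the same cluster, differed by 0.35 ± 0.10 SE and was not called (limma adjusted p = 0.172). Of 19 stress-response genes, HERPUD1, of endoplasmic reticulum-associated degradation (11.16, 11.24 and 11.08 against 10.53 and 10.58, 1.52-fold), and DDIT4, an mTOR inhibitor gene (6.51, 6.59 and 6.56 against 5.76 and 5.96, 1.62-fold), were higher. HERPUD1 was called in all 5 fits without 1 array, FADS3 in 2, and FADS2 and DDIT4 in 1.

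**Figure D4:**
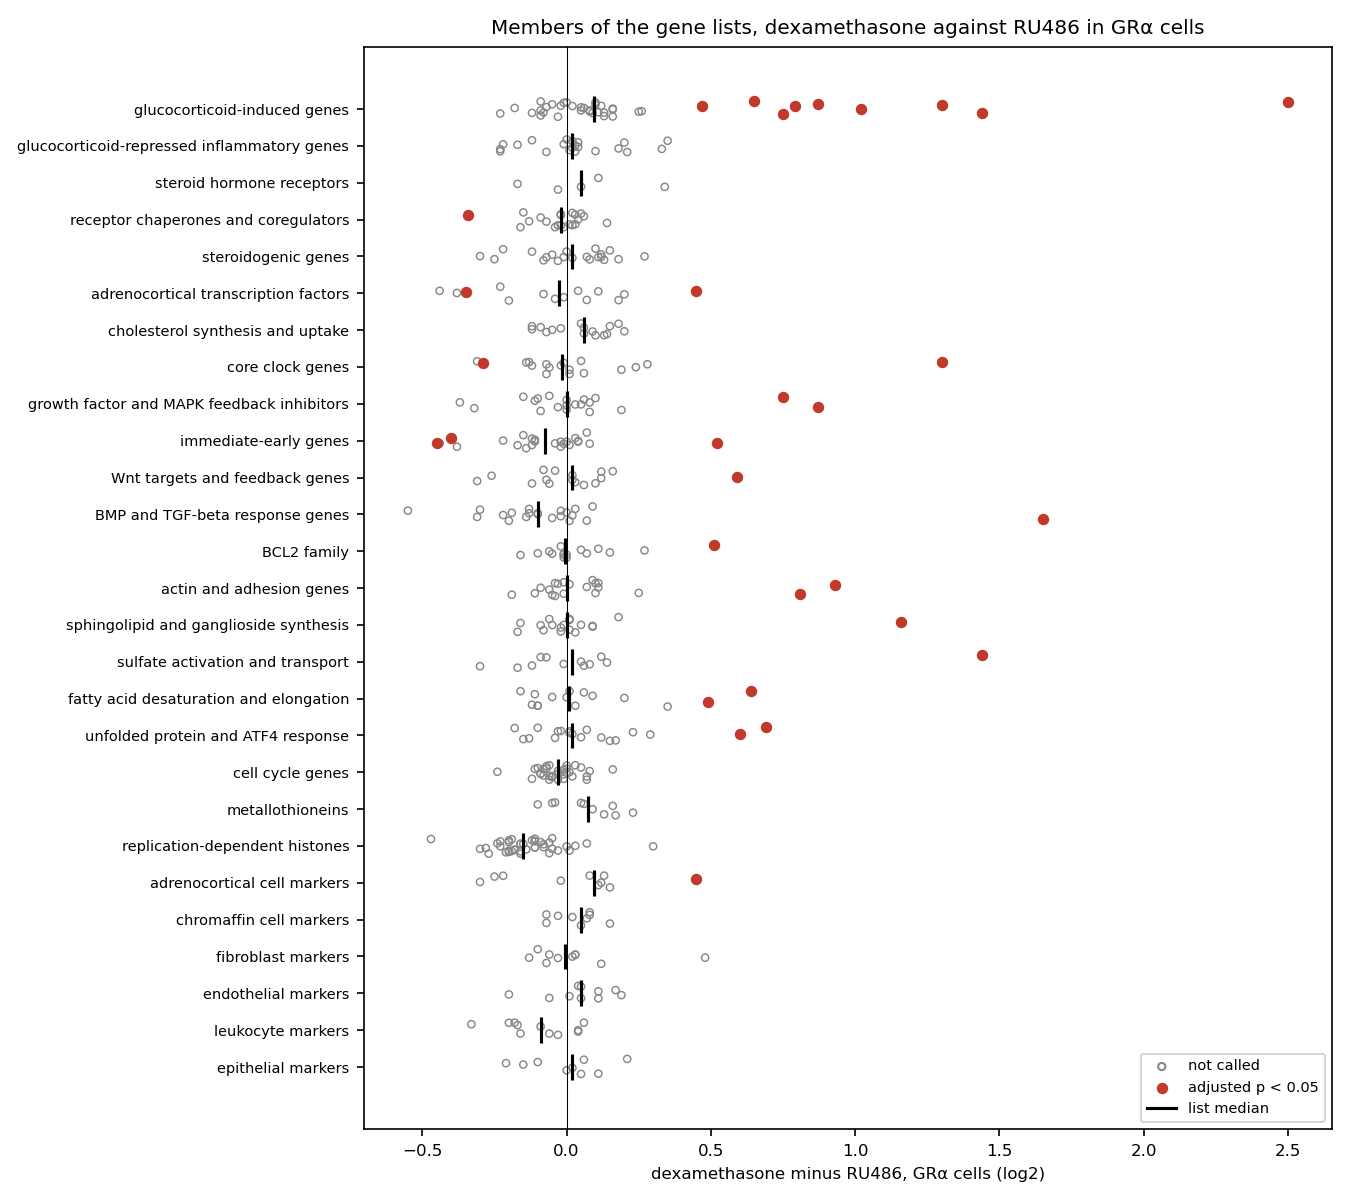
Each point is a member of 1 of the 27 gene lists, placed by its log2 difference between dexamethasone and RU486 in GRα cells; filled points were called, and a vertical bar marks the list median. The glucocorticoid-induced list holds 9 filled points, the steroidogenic list 0, and most histone genes lie left of 0.

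Cell cycle genes (32 measured), metallothioneins (10) and replication-dependent histones (41) gave 0 calls by limma, each list with 1 member at an unadjusted p under 0.05. The histones had a median of −0.149 log2, 5 of 41 being above 0, and in 20 of 41 the dexamethasone arrays lay below both RU486 arrays, against 14.1% of all genes. In control cells the histone median lay on the other side of 0, at 0.089, and the median difference between lines was −0.243. These genes include near-identical copies that probe sets may not separate. Their mean level was 7.83 to 7.93 in the dexamethasone arrays, 7.94 to 8.06 in the RU486 arrays and 7.90 to 8.72 in the vehicle arrays of GRα cells. Markers of other cell types gave 0 calls by limma: of 9 chromaffin, 10 fibroblast, 10 endothelial, 11 leukocyte and 9 epithelial genes, 0, 1, 0, 2 and 0 had an unadjusted p under 0.05. Mean levels of the leukocyte markers were 5.23 to 5.26 with dexamethasone and 5.28 to 5.41 with RU486, and those of the endothelial markers 5.19 to 5.32 and 5.18 to 5.20. The part of these small shifts in the results was not tested.

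The vehicle arrays, which did not enter the difference between the compounds, give the level without added ligand. At the 137 higher genes dexamethasone minus vehicle had a median of 0.557 log2 and that of RU486 minus vehicle −0.006. At the 28 lower genes these medians were −0.321 and 0.027. Both share the vehicle arrays, and the genes were chosen with the same dexamethasone and RU486 arrays, so the values are a description. Without the outlying vehicle replicate B the medians were 0.52 and −0.036 at the higher genes and −0.346 and 0.012 at the lower genes. The vehicle mean lay nearer to RU486 than to dexamethasone at 125 of 137 higher and 24 of 28 lower genes. Of the 137 higher genes it lay below the RU486 mean at 66 and between the compounds at 67 (49 and 86 without vehicle replicate B). Of the 28 lower genes it lay above the RU486 mean at 10 and between the compounds at 17 (13 and 14 without that replicate). At ZBTB16 the vehicle arrays read 6.33, 6.24 and 6.29, inside the range of the RU486 arrays, and at PHLDA1 they read 9.61, 9.60 and 9.65, above both RU486 arrays. At RASGRF1 the vehicle arrays read 6.61, 6.27 and 6.63, below both RU486 arrays. At NR5A1 they read 8.25, 8.16 and 8.49, again below both RU486 arrays (8.50 and 8.53). At ANP32D they read 5.01, 5.24 and 4.94, overlapping the dexamethasone arrays and below both RU486 arrays.

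The same pair of compounds in control cells, on arrays that share none with the GRα comparison, gave 67 called genes (0.364% of all genes). With dexamethasone 53 were higher (0.288%) and 14 lower (0.076%). Of the 137 genes higher in GRα cells, 129 (94.2%) had a positive difference in control cells, where 47.5% of all genes did, and their median there was 0.273. In control cells 43 of them were called, which is 31.4% of the GRα list and 81.1% of the control list. Of the 28 lower genes, 27 had a negative difference in control cells (median −0.223), and 6 were called, 21.4% of the GRα list and 42.9% of the control list. The control arrays of the compounds were apart in the same direction at 102 of the 137 higher genes (6.48% of all genes were) and at 21 of the 28 lower genes (7.95% of all genes were). No gene was called in opposite directions. Both comparisons use 1 estimate of each gene's spread, so the calls are not fully independent. The control total was 53 without control RU486 replicate C, 29 and 33 without RU486 replicates B and A, 37, 39 and 32 without dexamethasone replicates A, B and C, and 113 without GRα vehicle replicate B.

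Among the genes called in both lines, SLC26A2 differed by 1.22 ± 0.07 SE log2 in control cells, PER1 by 0.88 ± 0.07, ST3GAL5 by 0.95 ± 0.09 and IL1RAP by 0.79 ± 0.09, against 1.44, 1.30, 1.16 and 0.92 in GRα cells. NR5A1 differed by 0.51 ± 0.08 in control cells and by 0.45 ± 0.09 in GRα cells (difference between lines −0.06, limma adjusted p = 1.0). PHLDA1 (−0.37 ± 0.06), DACT1 (−0.38 ± 0.06), PPARGC1A (−0.41 ± 0.06), RANBP3L (−0.50 ± 0.08) and RNF182 (−0.37 ± 0.08) were lower in control cells as well. DUSP1 (0.31 ± 0.08) and STAR (0.14 ± 0.07) were not called there either. Of the 137 higher and 28 lower genes, 133 and 24 had a larger difference in GRα than in control cells. Of the 53 higher and 14 lower genes called in control cells, 39 and 2 did. Each set was chosen for being large in its own line, so these counts are a description.

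A test of the difference between lines called 5 genes (0.0271% of all genes), in which dexamethasone exceeded RU486 by more in GRα cells. For TMEM100 the difference between lines was 1.22 log2, the compounds differing by 1.65 in GRα and by 0.42 ± 0.13 SE in control cells. For ZBTB16 it was 0.90 (2.5 against 1.60), for OR7A5 0.91 (1.73 against 0.83), for NNMT 0.91 (1.02 against 0.11 ± 0.09) and for MAOA 0.87 (1.02 against 0.15 ± 0.08). The MAOA means were 5.88 with RU486 and 6.03 with dexamethasone in control cells, while GRα cells had 5.13 and 5.02 with RU486 and 5.29, 5.03 and 4.94 with vehicle, all below these control means. The limma adjusted p-values of the 5 genes lay between 0.0132 and 0.0284. The count was 0 without control dexamethasone replicate B, control RU486 replicate A or GRα RU486 replicate B, and 2 without control RU486 replicate C or GRα dexamethasone replicate A; in the fits without 1 of the 11 arrays OR7A5 was called in 8, MAOA in 7, ZBTB16 in 6, TMEM100 in 4 and NNMT in 2.

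**Figure D5:**
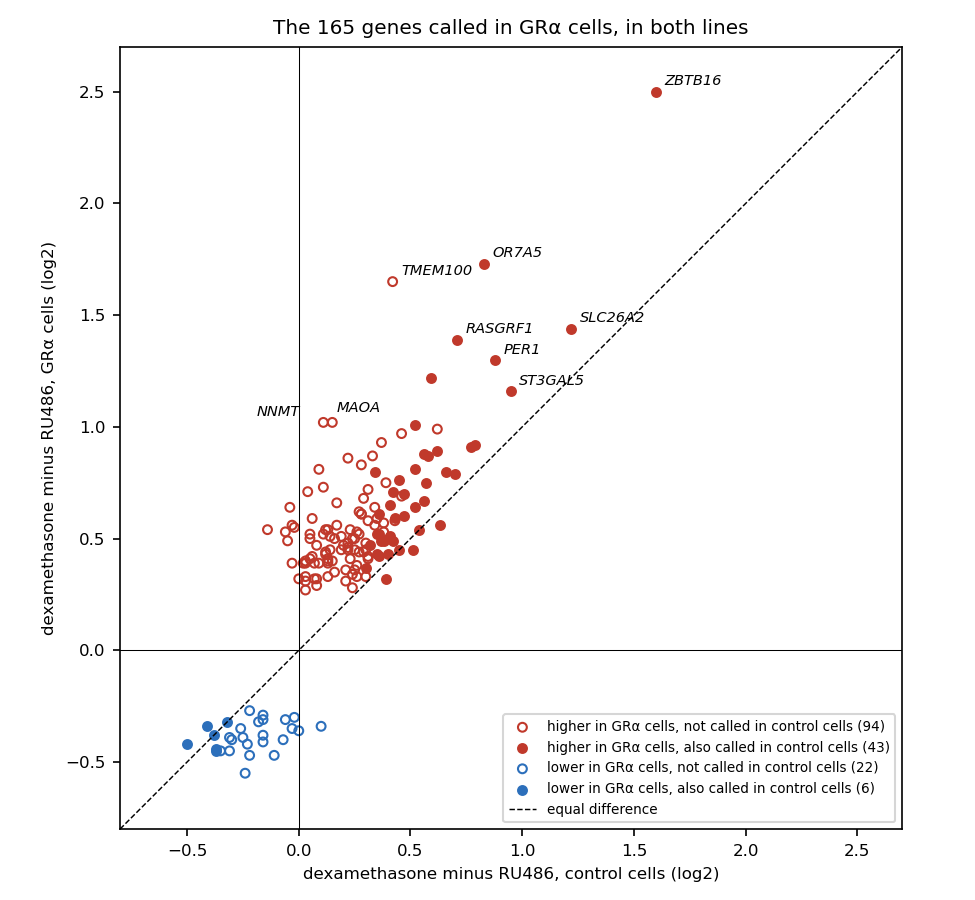
The 165 genes called in GRα cells are placed by their log2 difference between dexamethasone and RU486 in control cells (horizontal) and in GRα cells (vertical); filled points were also called in control cells, and the dashed line marks equal differences. Filled red points number 43 and filled blue points 6, and NNMT and MAOA lie far above the line with small differences in control cells. TMEM100 also lies far above the line, with a larger difference in control cells than NNMT and MAOA.

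Some of the called genes stood next to each other on their chromosome, counting neighbours among the genes tested in RefSeq order (GRCh38.p14). There were 9 such pairs in 18364 neighbouring pairs (0.049%), where 165 of 18388 genes with a position were called. In all 9 both genes were higher with dexamethasone, as were 137 of the 165 called genes. The number of pairs was not tested. ZBTB16 and NNMT (log2 2.5 and 1.02) and FADS2 and FADS3 (0.64 and 0.49) lie on chromosome 11, OR7C1 and OR7A5 (0.99 and 1.73) on chromosome 19, and TMEM100 and PCTP, a phosphatidylcholine transfer protein gene (1.65 and 0.51), on chromosome 17. On chromosome 13, EEF1DP3, FRY and ZAR1L stand in a row (0.52, 1.01 and 0.32). HHEX and EXOC6 (0.45 and 0.52) lie on chromosome 10, ACKR4 and TMEM108 (0.58 and 0.44) on chromosome 3, and REV3L and TRAF3IP2 (0.34 and 0.44) on chromosome 6. PCTP was called in 2 of 5 fits without 1 array and ZAR1L in 0, and the ACKR4 signal came from 1 of its 2 probe sets, the other differing by −0.08.

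Promoters were searched for a palindromic pattern of the glucocorticoid response element, in which ACA and TGT stand on either side of a spacer NNN (N is any base) and G and C stand at its outer ends, from 250 bases before to 50 bases after each gene's start in RefSeq. A promoter was held for 104 of the 137 higher genes, for 24 of the 28 lower genes and for 14237 of all genes tested. The palindrome, read on both strands, stood in 5 higher (4.81%) and 1 lower gene (4.17%) and in 37 of all promoters (0.26%). OR7A5 and OR7C1 are given the same start and so share 1 promoter, which leaves 4 different promoters among the higher genes. Whether the probe sets separate transcripts of both genes was not tested. The hexamer AGAACA, on either strand, stood in 10.6% of the higher, 8.33% of the lower and 10.9% of all promoters. The palindromes are shown with up to 44 bases on each side, in GRCh38.p14 and 5′ to 3′ on the gene's strand, with the match in capitals. These genes were picked by the pattern, so the fixed bases they share were set by the search. A match is a description and not a binding site.
OR7A5 and OR7C1, chr19:14835297-14835397, minus strand: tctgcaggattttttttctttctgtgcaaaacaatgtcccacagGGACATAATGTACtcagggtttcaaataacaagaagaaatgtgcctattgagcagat
EPHA4, chr2:221574203-221574302, minus strand: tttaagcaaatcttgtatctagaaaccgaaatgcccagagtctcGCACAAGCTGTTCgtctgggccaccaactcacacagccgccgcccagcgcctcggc
EEF2K, chr16:22206045-22206145, plus strand: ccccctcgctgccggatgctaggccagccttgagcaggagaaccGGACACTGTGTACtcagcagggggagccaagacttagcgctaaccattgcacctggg
EXOC6, chr10:92826620-92826720, plus strand: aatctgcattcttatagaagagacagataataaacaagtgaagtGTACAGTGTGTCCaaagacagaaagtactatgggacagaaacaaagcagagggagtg
PPARGC1A, chr4:24473011-24473111, minus strand: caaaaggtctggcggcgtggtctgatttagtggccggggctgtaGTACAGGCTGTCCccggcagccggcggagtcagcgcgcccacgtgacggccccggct

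The matches began 168 bases before the start in OR7A5 and OR7C1, 56 in EPHA4, 189 in EEF2K, 167 in EXOC6 and 162 in PPARGC1A. EPHA4, an ephrin receptor gene, had values of 5.99, 6.14 and 6.03 with dexamethasone and 5.34 and 5.11 with RU486 (log2 0.83 ± 0.12 SE). EEF2K, the kinase gene of elongation factor eEF2, stood at 7.27, 7.19 and 7.23 against 6.61 and 6.63 (0.61 ± 0.07), and EXOC6, an exocyst subunit gene, at 8.87, 8.96 and 8.81 against 8.33 and 8.39 (0.52 ± 0.09). All were apart between the compounds, as was every called gene and 26.9% of all genes. EEF2K was called in all 5 fits without 1 array and EPHA4 and EXOC6 in 4.

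At the threshold, the weakest calls were AASS (log2 0.27 ± 0.06 SE), MLLT3 (0.35 ± 0.08) and SERINC3 (0.29 ± 0.07), with limma adjusted p-values of 0.0488 to 0.0495. Just outside were SERPINA5 (0.44 ± 0.10), SMURF1 (0.32 ± 0.07) and the Wnt transcription factor gene LEF1 (−0.31 ± 0.07), each at 0.0511. The lowest difference of all, −1.31 ± 0.32 SE, belonged to PARM1-AS1, an antisense RNA gene named after its value was seen; it varied widely within the compounds and was not called (limma adjusted p = 0.0689). Among probe sets left out of the gene tests, the fit over all 29153 probe sets called 24 of the 7939 without a gene symbol (17 higher, 7 lower) and 2 of the 1754 with several symbols. FKBP5, CYP21A2 and NR0B1 are not analysed here, having no probe set to themselves.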

How the data were processed

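The authors deposited log2 values, made with RMA per the submitters' processing notes (which also name limma; no versions are given), for 29153 probe sets on 17 arrays; RMA's scaling between arrays can hide a shift common to all genes. The column of GRα RU486 replicate A is empty, so 1 column was not used. Of the probe sets, 19460 had 1 gene symbol in the platform annotation, updated through RefSeq GRCh38.p14 for 19429; the probe set with the highest mean stood for each of 18417 genes.

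One limma fit (3.58.1, R 4.3.3) gave a mean to each of 6 groups over all 17 arrays, with no covariate (11 residual and 5.89 prior degrees of freedom). Contrasts were dexamethasone minus RU486 in GRα cells, in control cells, and their difference. The tests were two-sided, with Benjamini-Hochberg adjustment and a threshold of 0.05. The number of arrays limits the precision: the median standard error was 0.095 log2 in GRα cells, 0.085 in control cells and 0.128 for the difference between lines. Intervals are 95% intervals of the fit. The code was tested on simulated data.

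Members, lists and tests were chosen with earlier results of these data known. Genes were named by rule: a set of receptor targets and steroidogenic genes; the 20 largest differences each way among calls whose arrays do not overlap; up to 4 called genes per list; genes called between lines; and 3 on each side of the threshold. Uncalled list members outside that rule, chromosomal neighbours and genes with a promoter match were named after their values were seen. Other settings changed the arrays fitted, scaling, dim-gene filter, eBayes options, weights, probe set choice, replicate block, threshold, or left out each array.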

Additional observations from a re-analysis of the deposited data

Results flagged for a closer look

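For 5 genes, dexamethasone exceeded RU486 by different amounts in GRα and control cells, by a limma test of the difference itself. The difference between lines was 1.22 log2 for TMEM100, 0.91 for NNMT, 0.91 for OR7A5, 0.90 for ZBTB16 and 0.87 for MAOA, in each case larger in GRα cells. In the 11 fits without 1 of the arrays, the highest limma adjusted p was 0.278 for TMEM100 and 0.145 for each of the other genes. Of all 18417 genes, 768 had an unadjusted limma p under 0.05 for this difference. That share is below the 0.05 that would fall there with no difference at any gene.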

How the results depend on the processing

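The GRα count of 165 was 54 with only the arrays compared, 259 without GRα vehicle replicate B, 83 at an adjusted p under 0.01, 78 with at least 0.5 log2 required, and 67 to 117 without 1 of the 5 arrays. Under the other settings it lay between 124 and 240. The control count of 67 was 113 without GRα vehicle replicate B, 105 with an eBayes trend, 214 with array weights, 37 at an adjusted p under 0.01, 29 with at least 0.5 log2, and 29 to 53 without 1 array. The count of 5 genes for the difference between lines was 8 with an eBayes trend, 17 with array weights, 0 at an adjusted p under 0.01, 7 without GRα vehicle replicate B, and 0 to 6 without 1 of the 11 arrays. The cause of these shifts was not tested. The stricter thresholds were applied to the same fit, whereas leaving out arrays changed both how many and which arrays were fitted.

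Deviations of same-letter arrays correlated at 0.04 and −0.02 in GRα cells and 0.03 to 0.08 in control cells. Those of different-letter arrays correlated at −0.07 to 0.07 in GRα cells and −0.11 to 0.05 in control cells. The GRα values cannot decide whether replicate letters pair the samples, because the deviations of RU486 replicates B and C mirror each other. Whether the small difference in control cells reflects pairing was not tested. With a replicate block the counts were 124 in GRα cells, 56 in control cells and 5 between lines. Of 56 named genes called, 22 stayed past the threshold in every fit; 29 were lost with only the arrays compared and 15 with the replicate block. Uncalled differences changed sign for HSD3B2 (0.045 without RU486 replicate B; −0.54 to 0.045 without 1 array), MC2R (−0.062 without RU486 replicate C; −0.062 to 0.30), ESR1 (0.011 with the replicate block; −0.060 to 0.023 without 1 array, highest without dexamethasone replicate A) and ESR2 (−0.0041 without RU486 replicate C; −0.0041 to 0.23). Where a fit left 1 RU486 array, that array was assumed to vary like the other groups. The fit of the 11 ligand arrays equals that of the arrays compared for the difference between lines and was not repeated.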
